A study of Mus musculus with 20 samples.

Results

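The 10 genes described here encode surface proteins by which stages of B-cell development are commonly told apart. They are Spn (CD43), Cd93, Cd24a, Il2ra (CD25), Cd2, Cd22, Cd72, Cd37, Ms4a1 (CD20) and Cd38, chosen by name from 56239 gene identifiers counted. All of them were measured in chromatin-associated RNA, which is enriched for transcripts still being made, from the mouse pre-B line B3.

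The B3 cells had been transduced by retrovirus with Ikaros-ERt2, a fusion of the transcription factor IKZF1 to a hormone-binding domain that keeps it out of the nucleus until 4-hydroxytamoxifen (4-OHT) is given. Cells were untreated (0 h) or treated with 500 nM 4-OHT for 30 min or for 1, 2, 6, 12, 15, 18, 21 or 24 h, with 2 replicate libraries at each of 10 time points. All 20 libraries came from the same transduced line, which was sorted as a pool for the GFP carried with the construct and which also has its own Ikzf1 gene. No cells given 4-OHT without Ikaros-ERt2, or given vehicle alone, were analysed here, so the effect of the drug, of time in culture and of nuclear IKZF1 cannot be told apart. The titles number the libraries of each time point as replicates without saying whether they were separate cultures. The descriptions of both 0 h libraries, unlike those of the other time points, carry the same number with different suffixes, so whether these 2, on which every comparison with 0 h rests, are repeats of 1 culture is not settled by the labels. The p-values therefore measure the spread between these libraries, which may be technical.

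IKZF1 (Ikaros) is a zinc-finger protein that lymphocyte development requires and that binds DNA sites built on the letters GGGAA. As B-cell precursors in mouse bone marrow mature, they lose CD43 and later CD93, gain CD25 and CD2 at the small pre-B stage, and gain or raise CD22, CD72, CD37, CD20 and CD38 on the way to the mature B cell. CD24 is carried at high levels by precursors and less by mature B cells. These are patterns of protein on the cell surface, whereas the values here are of RNA on chromatin.

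Total counts per library ran from 33296158 to 46868954 with a median of 40943260, so that 3 counts correspond to 0.0640 to 0.0901 CPM (CPM being a gene's count as a share of its library's total, on the field's standard scale). Levels are CPM after scaling by TMM factors, which ran from 0.870 to 1.059. They are given as mean ± SD of n = 2 libraries, or as the values of replicates 1 and 2 with a stroke between them. Replicates were close at 0 h, with a chi-square per degree of freedom of 1.46, and differed more at 12 h (9.95), 18 h (14.9) and 21 h (4.78). Each of these values was computed over the genes above a minimum count at that time point. Ikzf1 itself went from 4842 ± 4.43 CPM before treatment to 8804 ± 599 CPM after 24 h (log2 fold change 0.86, adjusted p = 6.55e-15), and reads of the transgene and of the cells' own gene cannot be told apart in it. The identity of the line was visible in Ebf1, a transcription factor of early B cells, at 9793 ± 53.1 CPM and in Pax5, which holds cells in the B lineage, at 1074 ± 1.54 CPM at 0 h. Igll1, a component of the pre-B-cell receptor, went from 169 ± 2.09 CPM to 0.985 ± 0.126 CPM over 24 h.

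The 8 genes with counts are described in 4 groups. Spn and Cd93, the markers of early and immature stages, fell within 1 h and reached their lowest level at 6 h, after which Cd93 rose again to its level at 0 h or, by TMM scaling, above it, and Spn came back in part. Cd24a lay between 1.46-fold and 1.80-fold below 0 h from 6 h on and was not called. Cd22, Cd72 and Cd37 were at their lowest at 2 h and at or near their highest at 24 h. Il2ra and Cd38 rose from 6 h on, 19.96-fold and 18.0-fold by 24 h. Cd2 and Ms4a1 had no count in any library.

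**Figure D1:**
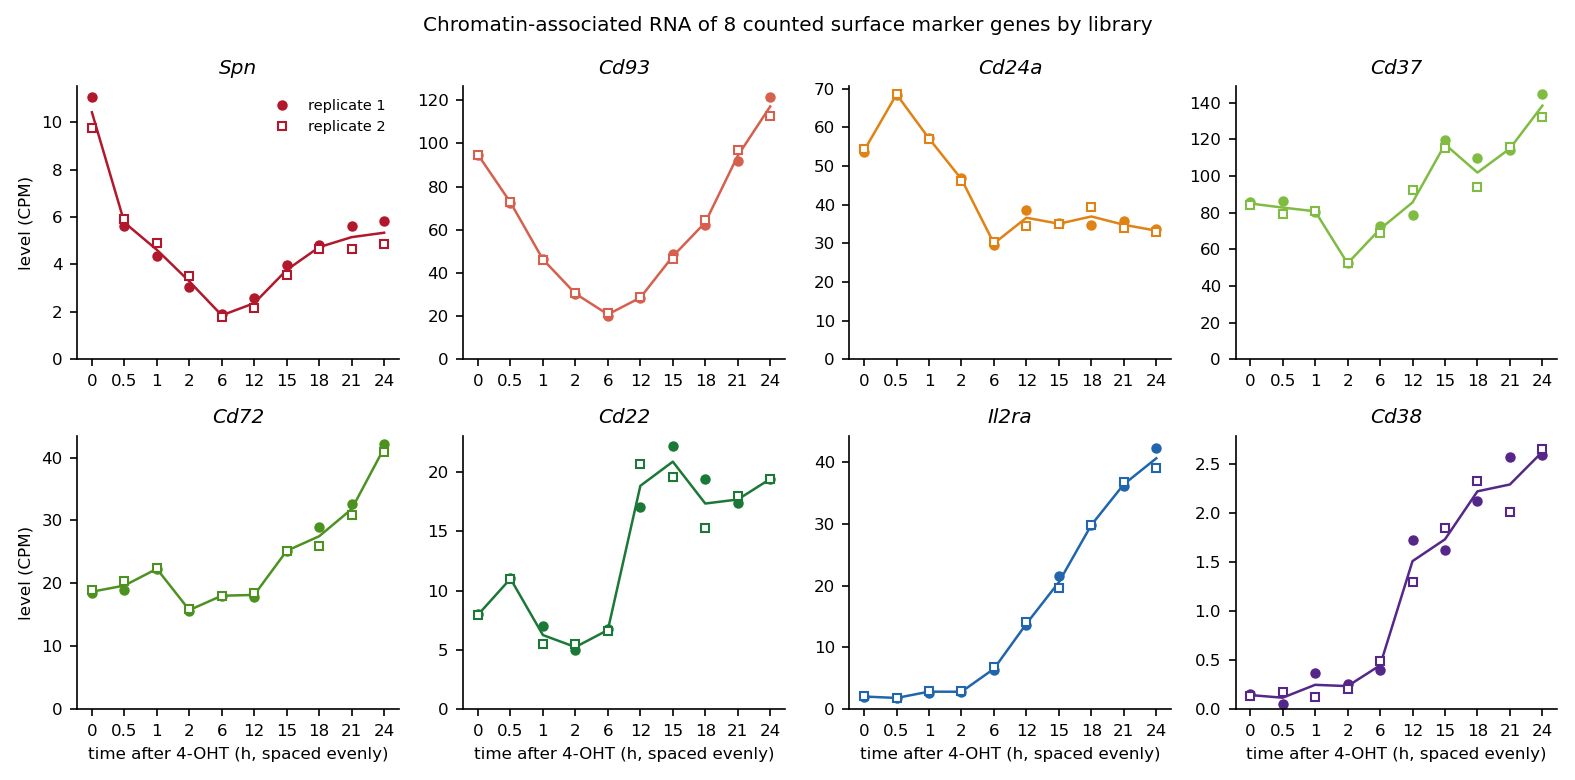
Level of each of the 8 counted genes in CPM (vertical axis, from 0) against time after 4-OHT (horizontal axis, time points spaced evenly), with replicate 1 as filled circles, replicate 2 as open squares and a line through the mean. Spn and Cd93 dip to 6 h, Cd22, Cd72 and Cd37 dip to 2 h, and Il2ra climbs from 2.03 to 40.6 CPM.

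A gene was called changed where edgeR's quasi-likelihood test gave an adjusted p under 0.01 and the fold change was above 2, over 16601 genes tested, 8 of them among the 10. At 30 min 0 of the 8 were called lower and 0 higher, where 0.410% and 0.0542% of all tested genes were. At 1 h 2 of the 8 were called lower, Cd93 and Spn, against 4.84% of tested genes, and 0 higher, against 2.33%. The same 2 genes were the ones called lower at 2 h (background 6.91%), 6 h (9.13%) and 12 h (9.92%), and Spn alone at 15 h (13.1%), 18 h (17.6%) and 21 h (19.4%). At 24 h 0 of the 8 were called lower against 20.1% of tested genes.

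Calls in the other direction began later. At 2 h 0 of the 8 were called higher (background 6.25%), and at 6 h 2 were, Il2ra and Cd38 (background 10.9%). Cd22 joined them to make 3 at 12 h (13.2%), 15 h (15.3%), 18 h (19.1%) and 21 h (20.1%). With Cd72 there were 4 of 8 at 24 h, against 20% of tested genes (3323 of 16601). From 2 h to 24 h 6 of the 8 were called higher, all but Cd24a and Spn, against 16.2%, and 0 lower, against 16.6%. Over the whole time course 6 of the 8 were called changed at one time point or another, all but Cd37 and Cd24a, where 51.9% of tested genes were.

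The median log2 fold change of the 8 genes was -0.42 at 2 h, where that of all tested genes was 0.026, and 0.93 at 24 h, where that of all tested genes was -0.011. From 2 h to 24 h it was 1.65 beside -0.0035. Scaling by library totals in place of TMM factors moved the median of all tested genes to -0.27 at 24 h against either 0 h or 2 h. It moved the share of calls that were lower from 50.05% to 62.1% at 24 h against 0 h, and from 50.5% to 64.7% at 24 h against 2 h. Changes at 24 h are therefore read relative to the bulk of genes.

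**Figure D2:**
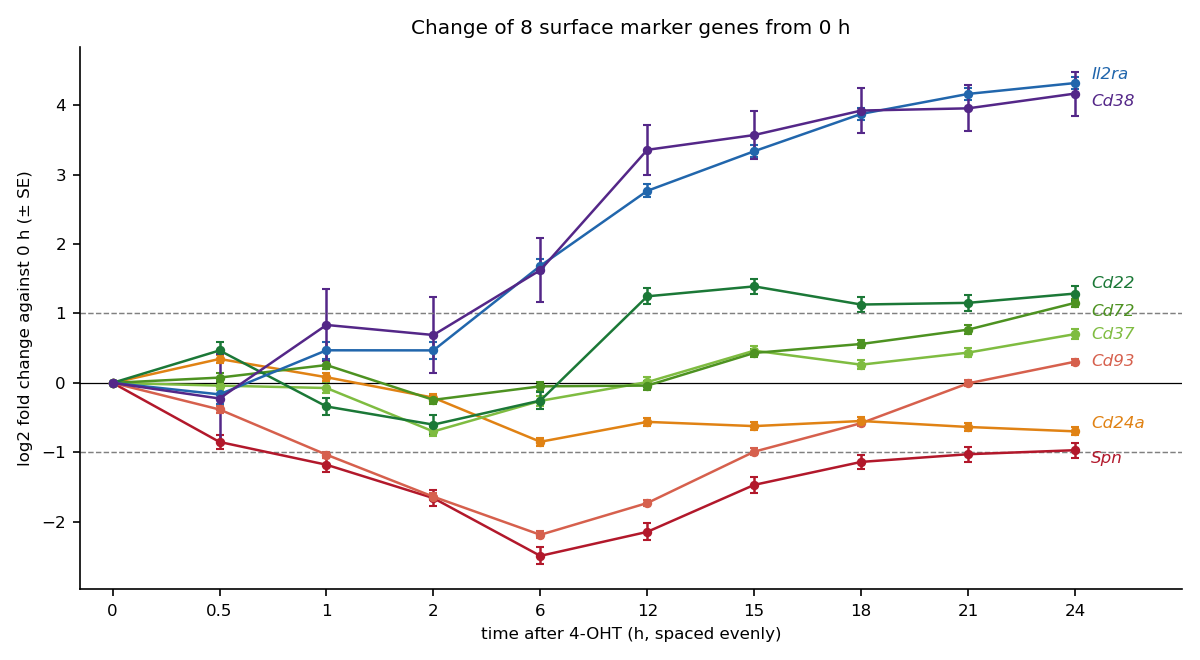
Log2 fold change of the 8 counted genes against 0 h (vertical axis, bars ± SE from edgeR) by time after 4-OHT (horizontal axis, time points spaced evenly), with dashed lines at a fold of 2 in either direction. Il2ra and Cd38 end near 4.3 and 4.2, Cd22 and Cd72 above the upper line, and Spn and Cd93 are lowest at 6 h.

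Spn and Cd93 were the members called lower earliest, at 1 h. Spn encodes CD43, the heavily glycosylated sialomucin that marks pro-B cells and is lost as cells become small pre-B cells. At 0 h, 30 min, 1 h, 2 h and 6 h its levels were 11.1/9.77, 5.61/5.93, 4.34/4.89, 3.05/3.52 and 1.91/1.79 CPM. Both libraries of every treated time point lay below both libraries of 0 h. At 30 min Spn was 1.80-fold lower (log2 fold change -0.85 ± 0.10, adjusted p = 4.13e-06), short of the fold of 2, and it was 2.26-fold lower at 1 h and 3.16-fold lower at 2 h (-1.66 ± 0.11, adjusted p = 4.09e-11). Its lowest point came at 6 h, 5.63-fold below 0 h (-2.49 ± 0.12, adjusted p = 1.31e-13).

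Spn then returned in part. At 12 h, 15 h, 18 h, 21 h and 24 h it stood at 2.59/2.14, 3.97/3.57, 4.81/4.65, 5.63/4.67 and 5.82/4.86 CPM. The libraries of 18 h and 21 h overlapped, as did those of 21 h and 24 h, and all lay below 0 h. At 24 h Spn was 1.96-fold lower (-0.97 ± 0.11, adjusted p = 3.29e-08), just inside the fold of 2 and so not called. Without 0 h replicate 2 or 24 h replicate 1 it was called, at -1.06 and -1.10, as it was with library totals, at -1.23. Its call at 21 h (-1.03 ± 0.11) was lost without 0 h replicate 1, at -0.94, and without 21 h replicate 2, at -0.89.

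Promoter windows, from 250 bases before the RefSeq start to 50 after it, were at hand for 6 of the 10 genes (RefSeq, GRCm38.p6). Each of the 6 was searched on both strands for GGGAA, which reads TTCCC on the opposite strand. These are the core letters of the IKZF1 site, which 62.7% of 32851 such windows hold at least once and 27.1% hold 2 times or more. Shown are 4 windows, those of Spn, Cd22, Il2ra and Cd38. The window of Cd72 held no match and that of Cd37 held 2. Neither is printed, so every window shown holds a match. The longer TGGGAA, or TTCCCA when read oppositely, whose matches lie within the shorter ones, is in 25.6% of windows. The window of Spn, chr7:127137774-127138073 on the minus strand and written along the gene's strand like the others, held 3 matches, shown in capitals here and in the later windows.
Spn: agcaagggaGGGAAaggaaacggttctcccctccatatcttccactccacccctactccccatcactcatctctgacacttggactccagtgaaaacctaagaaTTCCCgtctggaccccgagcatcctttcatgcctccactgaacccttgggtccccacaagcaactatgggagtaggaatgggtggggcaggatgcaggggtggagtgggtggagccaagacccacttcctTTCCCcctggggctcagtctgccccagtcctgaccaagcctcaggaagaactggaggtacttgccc

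Cd93 encodes a C-type lectin-like receptor that marks B-cell precursors and newly formed B cells. Levels at 0 h, 30 min, 1 h, 2 h and 6 h were 94.8/94.7, 72.4/72.9, 46.3/46.2, 30.3/30.5 and 20.2/21.3 CPM. No library of one of these time points overlapped those of the next. Cd93 was 1.30-fold lower at 30 min (-0.38 ± 0.045, adjusted p = 2.85e-06, not called), 2.05-fold lower at 1 h (-1.03 ± 0.046) and 3.12-fold lower at 2 h (-1.64 ± 0.048, adjusted p = 2.57e-17). At 6 h it was 4.56-fold lower (-2.19 ± 0.049, adjusted p = 2.22e-19).

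The later course of Cd93 ran the other way. At 12 h, 15 h, 18 h, 21 h and 24 h it stood at 28.1/28.9, 48.7/46.6, 62.4/64.4, 91.7/96.8 and 121/113 CPM. Each of these time points lay above the one before it, and by TMM-scaled level both libraries of 24 h lay above both of 0 h. Cd93 rose 3.85-fold from 2 h to 24 h (1.95 ± 0.048, adjusted p = 3.15e-19), while at 24 h it was 1.24-fold of 0 h (0.31 ± 0.044, adjusted p = 1.85e-06, not called). With library totals that last difference was 0.047 (adjusted p = 0.349). At 15 h, at -0.99 ± 0.046, it was within the fold of 2 and became a call without 15 h replicate 1 (-1.02) or with library totals (-1.04).

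The protein-coding genes nearest to Spn and Cd93 were looked at after the values of Spn and Cd93 were known. Thbd, the thrombomodulin gene 28.5 kb from Cd93, also fell at 2 h, by 1.74 on the log2 scale (adjusted p = 4.58e-12), and was at -0.30 at 24 h. Qprt, an enzyme of NAD synthesis 10 kb from Spn, fell by 1.38 at 2 h (adjusted p = 2.09e-05) and was at -0.28 at 24 h, from a level of 1.56 CPM at 0 h.

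Cd24a encodes the small glycosylphosphatidylinositol-anchored protein CD24, or heat-stable antigen. Its levels at 0 h, 30 min, 1 h, 2 h and 6 h were 53.5/54.4, 68.3/68.7, 57.1/57.0, 46.9/46.2 and 29.5/30.4 CPM. Its levels at 12 h, 15 h, 18 h, 21 h and 24 h were 38.6/34.5, 35.2/34.9, 34.6/39.2, 35.7/33.8 and 33.6/32.9 CPM. The highest libraries were those of 30 min, and every library from 6 h on lay below every earlier one. At 30 min Cd24a was 1.27-fold of 0 h (log2 fold change 0.34 ± 0.054, adjusted p = 0.000117), and at 6 h it was 1.80-fold lower (-0.85 ± 0.057, adjusted p = 2.23e-11). At 24 h it was 1.62-fold lower (-0.70 ± 0.057, adjusted p = 2.98e-10). None of these passed the fold of 2, and Cd24a was called at no time point against 0 h. From 30 min to 6 h the ratio of the means was 2.29, a comparison between the extremes that was not tested.

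Cd22, Cd72 and Cd37 are receptors and organisers that damp or tune signalling of the B-cell receptor. Cd22, a sialic acid-binding lectin (Siglec) whose tail recruits the phosphatase SHP-1, had its step between 6 h and 12 h. At 0 h, 30 min, 1 h, 2 h and 6 h its levels were 8.02/7.90, 11.0/11.0, 7.01/5.48, 4.98/5.48 and 6.79/6.55 CPM. It then stood, at 12 h, 15 h, 18 h, 21 h and 24 h, at 17.0/20.7, 22.2/19.6, 19.5/15.2, 17.4/18.0 and 19.4/19.5 CPM. Every library from 12 h on was above every earlier library, and the late libraries lay between 15.2 and 22.2 CPM.

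Before that step Cd22 stayed within 2-fold of 0 h. Against 0 h it was at 0.47 ± 0.12 on the log2 scale at 30 min (adjusted p = 0.0104) and at -0.60 ± 0.13 at 2 h (adjusted p = 0.000622), neither of them called. At 12 h it was 2.37-fold higher than at 0 h (1.25 ± 0.11, adjusted p = 2.79e-09) and at 24 h 2.44-fold higher (1.29 ± 0.11, adjusted p = 1.04e-09). From 2 h to 24 h it rose 3.70-fold. The call at 18 h (1.13 ± 0.11) was lost without 18 h replicate 1, at 0.94, and the call at 21 h (1.15 ± 0.12) was lost with library totals, at 0.92. The promoter window of Cd22, chr7:30878979-30879278 on the minus strand, held 3 matches to GGGAA, 1 of them within TGGGAA. This window lies wholly inside the annotated span over which Cd22 was counted, as do the windows of Cd37 and Cd38 inside theirs. For these genes the RefSeq start is therefore not the start of the counted span.
Cd22: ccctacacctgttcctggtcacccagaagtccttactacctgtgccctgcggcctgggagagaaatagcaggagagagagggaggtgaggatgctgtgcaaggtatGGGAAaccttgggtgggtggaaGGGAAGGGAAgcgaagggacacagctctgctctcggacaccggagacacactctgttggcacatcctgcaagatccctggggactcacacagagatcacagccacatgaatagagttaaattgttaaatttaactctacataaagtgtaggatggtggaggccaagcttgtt

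Cd72 encodes a lectin-like receptor that binds semaphorin 4D (CD100) and also carries an inhibitory motif. From 0 h through 30 min, 1 h, 2 h and 6 h to 12 h it stood at 18.5/18.9, 18.9/20.4, 22.2/22.4, 15.6/15.9, 18.0/18.1 and 17.8/18.5 CPM. At 15 h, 18 h, 21 h and 24 h it stood at 25.2/25.1, 29.0/26.0, 32.7/30.9 and 42.1/40.9 CPM. The levels at 0 h, 6 h and 12 h lay close together, 2 h was lowest, and every library from 15 h on was above every earlier one. Against 0 h Cd72 was called at 24 h alone, 2.22-fold higher (1.15 ± 0.058, adjusted p = 5.86e-14), a call that library totals ended, at 0.89. From 2 h, where it was at -0.24 ± 0.063 (adjusted p = 0.00210, not called), it rose 2.63-fold to 24 h (1.40 ± 0.060, adjusted p = 4.76e-15). Its promoter window held no match to GGGAA.

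Cd37 encodes a tetraspanin, a membrane protein that gathers other receptors into clusters, found mainly on mature B cells. Its levels at 0 h, 30 min, 1 h, 2 h and 6 h were 85.7/84.3, 86.2/79.4, 80.5/81.1, 52.3/52.4 and 73.0/69.2 CPM. It then stood, at 12 h, 15 h, 18 h, 21 h and 24 h, at 78.8/92.4, 119/115, 109.8/94.0, 114/116 and 145/132 CPM. Its 2 libraries at 2 h were the lowest of the 20 and those at 24 h the highest. Against 0 h the fitted values were -0.70 ± 0.070 at 2 h (adjusted p = 2.23e-08) and 0.70 ± 0.067 at 24 h (adjusted p = 3.95e-09), of like size in opposite directions and neither past the fold of 2. Between those 2 time points Cd37 rose 2.64-fold (1.40 ± 0.070, adjusted p = 7.01e-14), which was called. The promoter window of Cd37 held 2 matches to GGGAA, both after the start.

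Il2ra and Cd38 rose most. Il2ra encodes CD25, the alpha chain of the interleukin-2 receptor, whose appearance is used to mark small pre-B cells. At 0 h, 30 min, 1 h, 2 h and 6 h it stood at 1.94/2.12, 1.73/1.87, 2.67/2.97, 2.74/2.87 and 6.30/6.75 CPM. At 12 h, 15 h, 18 h, 21 h and 24 h it reached 13.6/14.0, 21.6/19.5, 29.8/29.8, 36.1/36.7 and 42.2/39.0 CPM. From 6 h on no time point overlapped the one before it.

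Il2ra was at 0.47 ± 0.12 on the log2 scale at 2 h (adjusted p = 0.00265, not called). It was 3.22-fold higher than at 0 h at 6 h (1.69 ± 0.10, adjusted p = 5.18e-12), 6.80-fold higher at 12 h (2.77 ± 0.094) and 19.96-fold higher at 24 h (4.32 ± 0.084, adjusted p = 3.86e-21). Il15ra, the neighbouring receptor gene 12.1 kb away, was at -1.0 at 2 h (adjusted p = 7.88e-12, just inside the fold of 2) and at 0.21 at 24 h. Of its partner chains, Il2rb stood at 0.0554 ± 0.0172 CPM at 0 h and 0.0421 ± 0.0173 CPM at 24 h, below what 3 counts give, and Il2rg, whose span other counted genes cover entirely, had no count. The promoter window of Il2ra, chr2:11642542-11642841 on the plus strand, held 1 match to GGGAA.
Il2ra: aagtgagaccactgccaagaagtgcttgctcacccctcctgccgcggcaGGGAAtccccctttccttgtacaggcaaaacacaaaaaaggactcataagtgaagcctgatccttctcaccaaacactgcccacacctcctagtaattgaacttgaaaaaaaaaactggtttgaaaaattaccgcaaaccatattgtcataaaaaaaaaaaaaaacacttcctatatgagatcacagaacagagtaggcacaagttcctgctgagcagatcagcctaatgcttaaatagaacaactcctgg

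Cd38 encodes an ectoenzyme that consumes NAD and is carried by mature naive B cells in mice. It was the least abundant of the 8, and its early values rest on few reads. At 0 h, 30 min, 1 h, 2 h and 6 h its counts were 7/6, 2/8, 18/5, 10/9 and 17/23. At 12 h, 15 h, 18 h, 21 h and 24 h they were 60/52, 63/76, 94/90, 76/74 and 87/98. In level, Cd38 went from 0.143 ± 0.0114 CPM at 0 h to 0.446 ± 0.0700 CPM at 6 h, 1.51 ± 0.303 CPM at 12 h and 2.63 ± 0.0461 CPM at 24 h. The levels at 0 h lay within the range of those at 30 min and 1 h, and every library from 12 h on lay above all earlier ones.

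At 12 h Cd38 was 10.2-fold higher than at 0 h (3.36 ± 0.36, adjusted p = 3.22e-08) and at 24 h 18.0-fold higher (4.17 ± 0.32, adjusted p = 7.41e-11). Its call at 6 h (1.62 ± 0.46, adjusted p = 0.00393) was lost without 0 h replicate 1, 0 h replicate 2 or 6 h replicate 2, with adjusted p of 0.0213, 0.0282 and 0.0383. Bst1 (CD157), the related ectoenzyme gene 24.6 kb away, stood at 0.0446 ± 0.0325 CPM at 0 h, within what 3 counts give, and at 0.414 ± 0.0476 CPM at 24 h. The promoter window of Cd38, chr5:43868559-43868858 on the plus strand, held 1 match to GGGAA, within TGGGAA. With the window of Cd22 it made 2 of 6 with the longer motif, and 5 of 6 held GGGAA, all but that of Cd72.
Cd38: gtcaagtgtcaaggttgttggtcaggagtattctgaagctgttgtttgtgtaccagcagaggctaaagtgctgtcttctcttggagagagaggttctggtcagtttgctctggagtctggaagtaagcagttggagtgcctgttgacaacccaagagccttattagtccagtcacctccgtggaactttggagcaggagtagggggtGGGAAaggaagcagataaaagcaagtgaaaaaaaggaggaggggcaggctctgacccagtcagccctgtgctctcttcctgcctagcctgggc

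Cd2 and Ms4a1 could not be placed in the same way. Cd2, an adhesion receptor of the immunoglobulin superfamily that appears on pre-B cells in mice, spans chr3:101275899-101287939 on the minus strand (GRCm38) with no other annotated gene on it. It had 0 counts in all 20 libraries, which allows up to 0.0640 to 0.0901 CPM by library, before scaling by TMM factors. Ms4a1, the gene of the tetra-spanning membrane protein CD20, spans chr19:11249675-11266241 on the minus strand. All of it lies inside 4930526L06Rik, an antisense gene on the plus strand that had 86 counts over the 20 libraries. Of 755 protein-coding genes that lie wholly inside a counted gene of the other strand, 750 (99.3%) had 0 counts everywhere, as did 412 of 414 (99.5%) of those inside a gene of the same strand. Of 11829 that overlap no counted gene, 2174 (18.4%) did. The 0 of Ms4a1 is therefore no measurement of its level, and the same holds for Rag1, Rag2, Il2rg and Ly9, which other counted genes also cover entirely.

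The other members were counted over most of their span. On GRCm38 the genes on the minus strand are Spn at chr7:127132232-127137823, Cd93 at chr2:148436640-148443563, Cd22 at chr7:30865402-30880342, Cd72 at chr4:43446462-43454628 and Cd37 at chr7:45233632-45239115. Those on the plus strand are Cd24a at chr10:43578284-43584265, Il2ra at chr2:11642807-11693193 and Cd38 at chr5:43868553-43912375. Spn, Cd93 and Cd24a share no base with another annotated gene. Cd37 shares 13 bases with Tead2, and 99.8% of its span is its own. The share is 99.2% for Il2ra, which holds Gm37881, 96.0% for Cd22, which overlaps Gm29439, and 95.6% for Cd38, which overlaps Gm16014 and Gm16015. It is lowest for Cd72, at 80.4%, because Tesk1 on the other strand shares 1603 of its bases. Tesk1, a protein kinase gene, was at -0.15 on the log2 scale at 2 h (adjusted p = 0.258) and at 0.66 at 24 h (adjusted p = 3.43e-06). Tead2, a transcription factor of the Hippo pathway, was at -0.70 at 2 h (adjusted p = 0.000105), the value of Cd37 to 2 decimals, and at -0.31 at 24 h (adjusted p = 0.0330), where Cd37 was at 0.70.

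**Figure D3:**
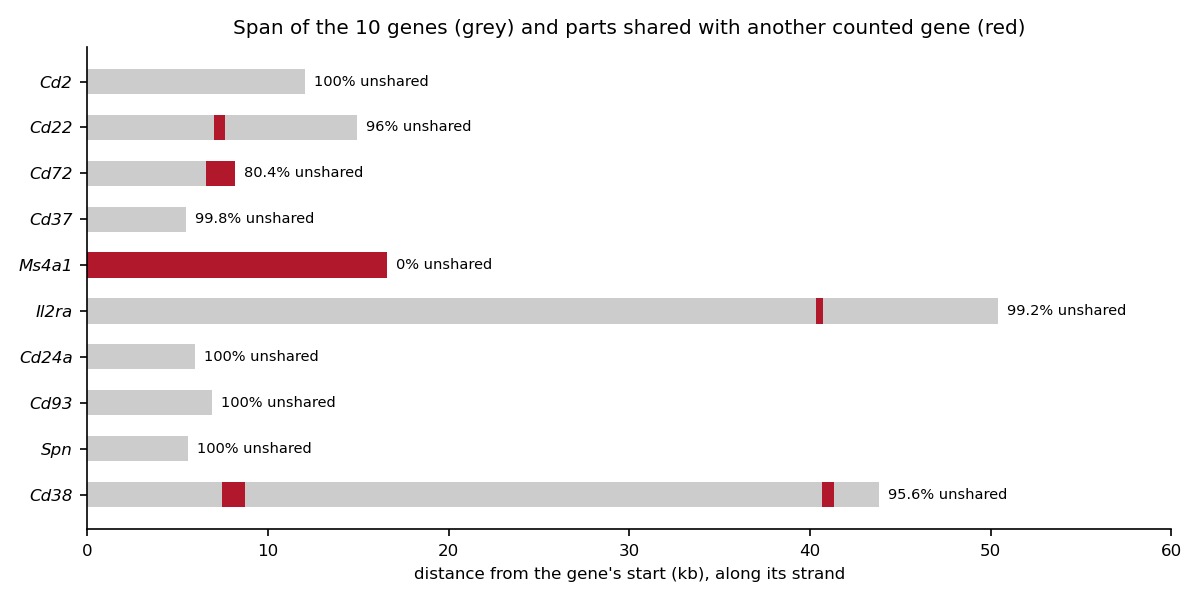
Span of each of the 10 genes in kb from its start along its own strand (horizontal axis), in grey, with the parts shared with another counted gene in red and the percent of the span that is unshared at the end of each bar. Ms4a1 is shared throughout, Cd72 keeps 80.4% and the others 95.6% or more.

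To compare levels between genes, CPM were divided by the length of the gene's span in kb, since reads in introns were counted. At 0 h Cd37 was highest at 15.5 ± 0.177 CPM per kb, followed by Cd93 at 13.7 ± 0.0160, Cd24a at 9.02 ± 0.0999, Cd72 at 2.29 ± 0.0345 and Spn at 1.86 ± 0.163. Cd22 at 0.533 ± 0.00527, Il2ra at 0.0403 ± 0.00242 and Cd38 at 0.00327 ± 0.000260 CPM per kb came last. At 24 h the order was Cd37 at 25.2 ± 1.57, Cd93 at 16.9 ± 0.900, Cd24a at 5.56 ± 0.0914, Cd72 at 5.08 ± 0.107, Cd22 at 1.30 ± 0.00354, Spn at 0.954 ± 0.121, Il2ra at 0.805 ± 0.0453 and Cd38 at 0.0599 ± 0.00105 CPM per kb. Cd22 and Spn had changed places. Over the unshared part of its span alone Cd72 stood at 6.33 CPM per kb at 24 h, which places it above Cd24a, and at 2.84 at 0 h, which does not. At 24 h Spn and Il2ra were neighbours whose means differed by little more than the SD of Spn, and the other neighbours differed by more than their SDs.

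The order of the time points within a gene was firmest for Cd93 and Il2ra. Ranked by mean level, 1 of 9 pairs of neighbouring time points overlapped in their libraries for Cd93 and 1 for Il2ra. There were 2 for Cd72, 3 for Cd24a, 4 each for Cd37, Spn and Cd38, and 5 for Cd22. The highest mean was 3.99 times the lowest for Cd22, 2.64 times for Cd72, 2.64 times for Cd37, 5.64 times for Cd93, 5.62 times for Spn and 22.5 times for Il2ra.

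Timing was described by when the mean log2 level, joined by straight lines, crossed the midpoint between 0 h and the time point farthest from it. This came at 1.10 h for Cd93 and 1.13 h for Spn on the way down, and at 3.33 h for Cd24a. On the way up it came at 7.97 h for Cd38, 8.69 h for Il2ra, 9.82 h for Cd22 and 18.3 h for Cd72. Cd37 had 14.3 h, but in replicate 2 alone its farthest point was the dip at 2 h and the crossing came at 1.45 h. The first replicate alone put Spn at 0.879 h and Cd93 at 1.13 h, the second Spn at 1.46 h and Cd93 at 1.06 h, so their order was not the same in both. On the linear scale Spn crossed at 0.460 h, before Cd93 at 0.782 h, while Cd24a crossed at 3.11 h, Cd38 at 11.3 h, Il2ra at 15.2 h and Cd72 at 19.8 h.

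Across the 20 libraries, which share their time points and their scaling, the log2 levels of Il2ra and Cd38 had a Pearson correlation of 0.973. It was 0.890 for Cd72 with Cd37, 0.863 for Cd93 with Spn and 0.844 for Cd22 with Cd37, and -0.804 for Il2ra with Cd24a. Cd93 and Il2ra were at 0.247. Among 12056 tested genes averaging at least 1 CPM, the closest to Il2ra over the same libraries were Gm33104 (r = 0.997), Adamts6 (r = 0.997) and Ddx58 (r = 0.996). Gm33104 is a long noncoding RNA gene, Adamts6 a metalloprotease gene, and Ddx58 encodes the RNA sensor RIG-I. Gm33104 was also among the closest to Cd38 (r = 0.976), with Gm9899 (r = 0.978) and Gm36371 (r = 0.976).

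The closest to Spn were Cd180 (r = 0.950), Edaradd (r = 0.936) and Gm33728 (r = 0.927). Cd180 encodes a Toll-like receptor homologue of B cells and is itself one of the mature B-cell markers listed for comparison, at -1.36 ± 0.041 on the log2 scale at 2 h and -0.90 ± 0.040 at 24 h. The closest to Cd93 were Cpq (r = 0.976), Pcdh15 (r = 0.970) and Gm49539 (r = 0.968), and to Cd24a Gm16277 (r = 0.950), Glrx3 (r = 0.948) and Slc18a2 (r = 0.947). Those of Cd22 were F730311O21Rik (r = 0.971), Haao (r = 0.965) and B530045E10Rik (r = 0.953). For Cd72 they were Acads (r = 0.972), Xpc (r = 0.972) and Foxn3 (r = 0.968), and for Cd37 Hdac6 (r = 0.976), Arl8a (r = 0.969) and Pde1b (r = 0.967). The names depend on the measure. By Spearman correlation 0 of the 3 stayed among the closest for Il2ra, Spn and Cd38, 1 for Cd22, Cd72, Cd37 and Cd24a, and 2 for Cd93. By Pearson correlation over the 10 time point means 1 of 3 stayed for Cd24a and Cd38, 2 for Cd72 and Cd37, and 3 for the others.

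Other surface markers of early stages moved both ways. Of 14 such genes 7 were tested, and at 24 h 4 were called lower and 3 higher. Among them Flt3, a cytokine receptor of lymphoid progenitors, rose by 5.54 ± 0.15 on the log2 scale, from 1.17 ± 0.0966 CPM to 54.6 ± 10.3 CPM, and Il7r, the interleukin-7 receptor of pro-B and pre-B cells, by 1.67 ± 0.091. Enpep (BP-1), an aminopeptidase used to stage pre-B cells, was at -1.13 ± 0.072, and the Siglec Cd33 at -1.92 ± 0.21, both called lower. Bst1, also called higher, averaged 0.0446 CPM at 0 h, below what 3 counts give. It passed the filter on low counts through later libraries alone and had little room to be called lower. At 24 h 20.1% of all tested genes were called lower and 20% higher, and the number higher here is not read against that share. The early markers Kit and Cd34 each had fewer than 20 counts over the 20 libraries and were not tested.

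All 10 of the general B-cell surface markers were tested, 5 were called higher at 24 h and 2 lower. Cd53, a tetraspanin of leukocytes, rose by 3.52 ± 0.062, Cd79b, a signalling chain of the B-cell receptor, by 2.29 ± 0.085, and Ptprc (CD45), the leukocyte phosphatase, by 1.37 ± 0.061, while Cd74, the invariant chain, was lower at -1.45 ± 0.20. Of 25 markers of mature B cells 20 were tested, 7 were called higher and 4 lower. The 4 with the largest changes among those averaging at least 1 CPM all rose, the Fc receptor-like genes Fcrl1 by 3.47 ± 0.12 and Fcrla by 3.39 ± 0.26, the inhibitory Fc receptor Fcgr2b by 3.21 ± 0.069 and the lipid-presenting Cd1d1 by 1.82 ± 0.069. The 4 mature markers called lower were Fcer2a at -1.60 ± 0.19, Cd40 at -2.58 ± 0.42, Cd69 at -1.31 ± 0.12 and Slamf1 at -1.23 ± 0.20. The share of all tested genes called at 24 h was 20% for higher and 20.1% for lower. Of 10 genes of B-lineage identity 8 were tested, 5 were called higher and 2, Igll1 and Vpreb1 of the pre-B-cell receptor, lower.

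Ligands and signalling partners of the members were split as well. Of 20 genes 19 were tested, 5 were called higher at 24 h and 6 lower, where 20% and 20.1% of all tested genes were. Blnk, the adaptor of the pre-B-cell receptor, was -1.41 ± 0.065 at 2 h and 4.35 ± 0.053 at 24 h, called in both directions in turn. St6gal1, the sialyltransferase that makes the sugar CD22 binds, rose by 2.44 ± 0.041, and Cmah, which makes the form of sialic acid that mouse CD22 prefers, by 2.02 ± 0.038. Plcg2, the phospholipase downstream of the B-cell receptor, was lower at -1.80 ± 0.068. Ptpn6, which encodes SHP-1, was at -1.73 ± 0.076 at 2 h and -1.04 ± 0.072 at 24 h, both called lower, and Sema4d, the ligand of CD72, was at -1.70 ± 0.069 at 24 h, called lower. Ptpn6 and Sema4d were picked for these roles after their values were seen. The median log2 fold change at 24 h was -1.02 over the tested early-stage markers, 0.99 over the general and 0.75 over the mature B-cell markers, and -0.35 over the ligands and partners, beside -0.011 over all tested genes.

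The families of Cd37 and Ms4a1 differed in how much could be measured. Of 19 tetraspanin genes, Cd37 among them, 15 were tested, with a median of 0.15 at 24 h. There 4 were called higher and 3 lower, where 20% and 20.1% of all tested genes were. Besides Cd53, Tspan13 rose by 2.46 ± 0.037 and Tspan17 by 2.12 ± 0.18, and Tspan4 was lower at -2.59 ± 0.077. Of 15 MS4A genes 7 were tested, 6 were called higher and 1 lower. The 6 called higher averaged from 0 to 0.0441 CPM at 0 h, below what 3 counts give. They passed the filter on low counts through later libraries alone and had little room to be called lower. Their number is therefore not read against the share of all tested genes. Ms4a4a had 0 counts in both 0 h libraries, 6 and 4 counts by 2 h and 1353 and 1536 counts by the end, which makes it at least 620-fold higher at 24 h against a floor of 3 counts per library. Ms4a6b went from 3 and 1 counts at 0 h to 527 and 723 counts 24 h later.

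**Figure D4:**
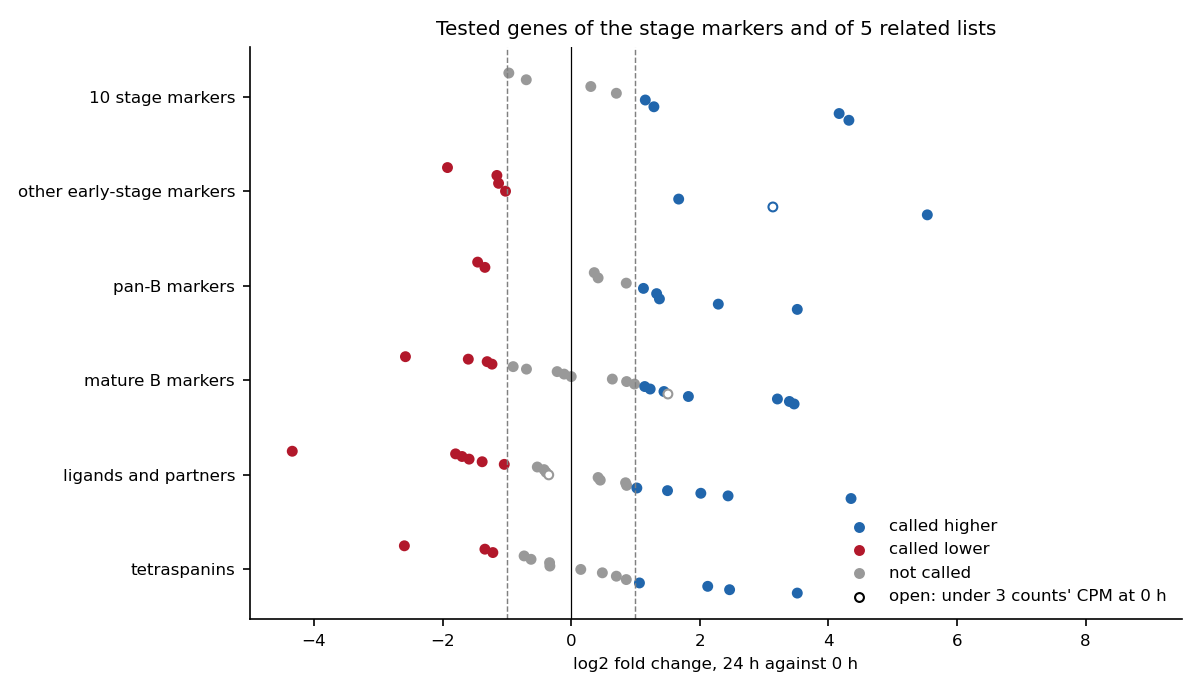
Log2 fold change at 24 h against 0 h (horizontal axis) of each tested gene among the 10 stage markers and 5 related lists (rows), coloured by call, with open circles for genes whose mean level at 0 h was below 0.0901 CPM and dashed lines at a fold of 2. The stage markers have 4 genes called higher and 0 lower, with Spn at -0.97 just inside the lower line. Each of the other lists has genes called in both directions.

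Markers of other cell types were low in most lists. The summed level of 9 T-cell markers ran from 2.76 to 6.65 CPM over the 20 libraries, and that of 8 myeloid markers from 0.678 to 2.18 CPM, with S100a8 and S100a9 at 0 in every library. For 6 erythroid markers it ran from 0.490 to 1.26 CPM, with Hbb-bs at 0. The sum of 6 natural killer cell markers ran from 2.39 to 61.5 CPM and rose with Il2ra and Cd38. All 3 of these that were tested were called higher at 24 h. The filter on low counts partly set that number, so it is not read against the share of all tested genes. Nearly all of the sum was Klrd1 (CD94), at 2.41 ± 0.350 CPM at 0 h and 56.9 ± 3.81 CPM at 24 h. Prf1 (perforin) went from 0.0113 ± 0.0159 CPM, below what 3 counts give, to 0.906 ± 0.1004 CPM (adjusted p = 1.28e-09). Prf1 passed the filter through later libraries alone and had little room to be called lower. Klrb1c, a lectin-like receptor, went from 0.187 ± 0.0101 CPM to 0.730 ± 0.273 CPM (adjusted p = 0.000320), with 16.8% of its span unshared. Gzmb was at 0 and Ncr1 and Eomes had fewer than 10 counts in all, and none of these was tested. The sum of 6 stromal and endothelial markers ran from 123 to 434 CPM, nearly all of it Pecam1, at 338 ± 1.77 CPM at 0 h, 141 ± 1.32 CPM at 2 h and 415 ± 26.1 CPM at 24 h, with Cxcl12 at 0. The part of these genes in the values of the stage markers was not tested.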

How the data were processed

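Chromatin-associated RNA from 20 libraries (10 time points, 2 replicates each) was used. The authors ran nf-core/rnaseq with STAR against mm10, obtained gene counts from featureCounts with reads in introns kept, and deposited those raw counts without scaling. The strand setting and the treatment of reads shared between genes are not given in the sources used here. Columns were matched to libraries by name, and groups came from the sample labels. Tests covered the 16601 genes that reached 10 counts in 2 or more libraries and used the quasi-likelihood test of edgeR 4.0.16 in R 4.3.3 (TMM scaling, time as a factor, all libraries in 1 fit), with Benjamini-Hochberg adjustment over all genes tested, adjusted p under 0.01 and a fold change above 2. A change over the time course needed the joint test and a fold above 2 at any time point. The fold changes are edgeR's fitted ones, with its default prior count of 0.125, and each SE is the log2 fold change divided by the square root of its F statistic. Log2 levels, used for midpoint times and correlations, are of CPM with a prior count of 2. Gene spans came from GENCODE M21, which places 55154 of 56239 identifiers. Counting is the only error that depth describes here, since reads carry no molecular identifiers, and 3 counts were taken as the limit that a count of 0 allows.

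The 10 genes and the related lists were chosen with earlier results of these data known. Genes named besides them were Ikzf1, the 3 genes closest to each member by correlation of log2 CPM, and up to 4 genes of each list with the largest change at 24 h among those called and averaging at least 1 CPM, and genes overlapping a member. The nearest neighbours, Ebf1, Pax5, Igll1, Cd180, the mature B-cell markers called lower and others named for a role were added after values were seen. The fit and the midpoint times were tested on simulated data. The alternatives were DESeq2 1.42.0, DESeq2 size factors, library totals, other filters and thresholds, models of only the 4 libraries compared, a replicate block and leaving out each library, and, for midpoint times and correlations, linear CPM, each replicate alone, Spearman correlation and time point means.

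Replicate numbers were checked for pairing by the correlation of same-numbered deviations from the time point means, which did not pair them, so the main fit has no block.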

Additional observations from a re-analysis of the deposited data

How the results depend on the processing

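DESeq2, DESeq2 size factors, no filter on low counts, an adjusted p under 0.05 and models of only the 4 libraries compared changed no call and no count among the members wherever they were run. Alternatives at 12 to 21 h were added after seeing the data. Library totals gave 1 member lower (0 with TMM) and 3 higher (4 with TMM) at 24 h, 2 lower at 15 h, 2 higher at 21 h (3 with TMM) and 5 changed over the time course (6 with TMM). At least 10 counts in every library left Cd38 untested and gave 1 higher at 6 h. With no threshold on the fold, 2 were lower and 1 higher at 30 min, and 2 higher at 1 h. At that setting 6 were lower and 1 higher at 2 h, 4 lower at 6 h, and 2 lower and 6 higher at 24 h. From 2 h to 24 h 1 was lower and 7 higher, and 8 changed over the time course. The share of all tested genes at that setting is not given here, so these counts are not read as a result about the members. Leaving out each library in turn gave 1 to 2 members higher at 6 h, 0 to 1 lower at 21 h, 0 to 1 lower at 24 h and 1 to 2 lower at 15 h, with the lone library assumed to vary like the others. The calls so gained or lost were of Cd38, Spn and Cd93, and of Cd22 at 18 h, where 2 to 3 were higher. Replicate numbers did not pair the libraries: over 12056 genes and 45 pairs of time points the correlation of same-numbered deviations averaged -0.00032, from -0.45 to 0.25, and was above 0.1 in 3 pairs. With the replicate block, 2 members were lower at 2 h and 4 higher at 24 h, as without it, and no call of a member changed.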
